A study of Triticum aestivum with 23 samples.

Results

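Wheat stores benzoxazinoids, defence compounds of grasses, as inactive glucosides, and the glucoside of DIMBOA is a major form in young seedlings. Beta-glucosidases, which in intact cells are kept apart from the stored glucosides, remove the glucose when tissue is damaged and release the toxic aglucone. In wheat, rye and maize these enzymes belong to glycoside hydrolase family 1, a large family whose members also cleave other glucosides, such as the coumarin glucoside scopolin.

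The data described here are the transcript levels of 8 wheat genes annotated with DIMBOA glucoside beta-glucosidase activity, among 266760 genes in the table. The 8 are those the study listed for this term among genes whose expression differed from the control in both dwarf *tabri1* triple mutants, and each was matched to the table by its older identifier. The levels in the dwarf mutants and in the control therefore chose the genes. The list may also leave out genes that changed in the milder *tabri1-a.3bd*, so the values in that line may be fixed by the choice too. All these values are a description and carry no test. *tabri1-bd* and Cadenza took no part in the choice, and the comparison between them was tested. The annotation was taken as the study gives it, no substrate was measured, and no enzyme role of a single gene is asserted here.

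The series has 23 RNA-seq libraries of 6 genotypes, made from whole shoots at leaf stage 2, grown under constant light, with several seedlings pooled in each replicate. *TaBRI1* encodes the brassinosteroid receptor kinase, and hexaploid wheat has a copy in each of its A, B and D genomes. *tabri1-bd* carries premature stop codons in the B and D copies, from mutagenised lines of the cultivar Cadenza that had been backcrossed to it. *tabri1-a.1bd*, a severe and sterile dwarf, has a premature stop in the A copy as well. *tabri1-a.2bd*, a dwarf, and *tabri1-a.3bd*, a milder line, arose from EMS mutagenesis of *tabri1-bd* and were crossed again to it, and each has an amino acid substitution in TaBRI1-A, in the leucine-rich repeats and in the kinase domain respectively. *TaBRI1-NS* is the null segregant, a sister line with functional copies, and Cadenza is the parent cultivar. *tabri1-a.1bd* had 3 libraries and every other genotype 4. Nothing in the labels ties a library to separate growth runs, so p-values measure the spread between these libraries. Transcripts of the whole shoot were measured, so fewer cells of a type and less RNA per cell cannot be told apart, and shoot markers were not checked because the identifiers carry no gene names.

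Values are TPM, the level of a gene per its length, scaled so that every library has the same total. The libraries held 22617693 to 38467039 recovered reads. The *TaBRI1* copies were transcribed in every library, at 3.90 to 7.61 TPM for *TaBRI1-A*, 3.30 to 8.53 TPM for *TaBRI1-B* and 5.73 to 13.9 TPM for *TaBRI1-D*. The alleles are point mutations, so these levels do not check the labels. The libraries of *tabri1-a.1bd* differed among themselves more than those of other genotypes. Over all genes tested, Pearson's r between *tabri1-a.1bd* libraries was 0.844 to 0.95, and it was at least 0.946 within each other genotype. Replicate 1 of *tabri1-a.1bd* stood apart in several of the 8 genes, so results that rest on it are also given without it.

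All 8 genes lie on chromosomes 2B, 2D and 3B. TraesCS2B03G1500200 (older identifier TraesCS2B02G599800) and TraesCS2B03G1501600 (TraesCS2B02G600200) are close together near the end of 2B, with 13 listed genes between them, of which 1 was expressed enough to be tested. They are genes 15002 and 15016 of the 15783 on 2B in identifier order. TraesCS2D03G1268900 (TraesCS2D02G594400) is gene 12689 of 13435 on 2D, also near the end of its chromosome. These 3 genes and TraesCS3B03G1059300 (TraesCS3B02G430000) are listed by the study for scopolin beta-glucosidase activity as well. The other four, TraesCS2B03G0384300 (TraesCS2B02G157800), TraesCS2D03G0287000 (TraesCS2D02G136500), TraesCS2D03G0869600 (TraesCS2D02G381100) and TraesCS3B03G0718400 (TraesCS3B02G277600), are listed for the DIMBOA glucoside term alone. TraesCS3B03G0718400 is 25 listed genes from *TaBRI1-B*, the copy that carries a stop in all 4 mutants. Every one of the 8 passed the filter of at least 0.5 TPM in at least 3 libraries. How far related copies share reads was not examined here, so values of near-identical copies are uncertain to that extent.

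The 2B pair made up most of the transcript level of the set. TraesCS2B03G1501600 was the most abundant of the 8 in the mean of every genotype but *tabri1-a.1bd*, and it had 23.9, 32.2, 19.2 and 33.5 TPM in the *TaBRI1-NS* libraries and 22.0, 21.4, 27.4 and 24.3 TPM in Cadenza. It had 170, 158, 126 and 164 TPM in *tabri1-a.2bd*. The *tabri1-a.1bd* libraries had 15.4, 178 and 273 TPM. All 4 *tabri1-a.2bd* libraries lay far above the control libraries, whereas replicate 1 of *tabri1-a.1bd* lay below every one of them and replicates 2 and 3 lay far above. The *tabri1-a.2bd* mean of 154 TPM ± 19.4 (SD, n = 4) was 5.68 times the *TaBRI1-NS* mean of 27.2 TPM ± 6.79 (SD, n = 4). The milder *tabri1-a.3bd* had 36.5, 41.2, 42.5 and 34.5 TPM, each above the highest control library, and *tabri1-bd* had 27.2, 26.4, 46.0 and 28.5 TPM, overlapping with it.

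TraesCS2B03G1500200 was low in the control and differed by a larger factor. It had 4.16, 4.75, 2.25 and 7.02 TPM in *TaBRI1-NS*. It had 54.3, 62.5, 35.6 and 47.7 TPM in *tabri1-a.2bd*. It had 25.9, 208 and 348 TPM in *tabri1-a.1bd*. Every library of both dwarfs lay above every control library, and replicate 1 of *tabri1-a.1bd* lay below all of *tabri1-a.2bd* while the other two lay above. The *tabri1-a.2bd* mean was 11.0 times that of *TaBRI1-NS*, and the *tabri1-a.1bd* mean was 42.6 times it, or 61.1 times without replicate 1. Levels in *tabri1-a.3bd* (7.47, 10.2, 6.64 and 6.31 TPM), *tabri1-bd* (2.89, 5.95, 8.75 and 6.39 TPM) and Cadenza (2.24, 2.78, 4.77 and 2.30 TPM) overlapped with the control.

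The balance within the 2B pair also differed between genotypes. The ratio of TraesCS2B03G1500200 to TraesCS2B03G1501600 TPM, which the scaling of a library cannot change, was 0.125 ± 0.0362 (SD, n = 4) in Cadenza, 0.162 ± 0.0394 (SD, n = 4) in *TaBRI1-NS*, 0.186 ± 0.0559 (SD, n = 4) in *tabri1-bd*, with 0.198 ± 0.0385 (SD, n = 4) for *tabri1-a.3bd*. It was 0.322 ± 0.0514 (SD, n = 4) in *tabri1-a.2bd*, where the lowest library (0.282) was above the highest of these (0.247). In the *tabri1-a.1bd* libraries it was 1.69, 1.17 and 1.27, so TraesCS2B03G1500200 was the higher of the pair in all 3, including replicate 1, where both levels were low beside the other replicates.

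TraesCS2D03G1268900 was near the limit of detection outside the dwarfs. It had 0 reads in all 4 Cadenza libraries, where 3 reads would be 0.0538 to 0.0695 TPM. In *TaBRI1-NS* there were 2 reads in total, both in replicate 2 (0.0482 TPM). The *tabri1-a.2bd* libraries had 2.52, 2.49, 3.44 and 1.82 TPM, and those of *tabri1-a.1bd* had 0.309, 52.8 and 97.6 TPM, from 16, 2662 and 4370 reads. Every dwarf library was above every library of *TaBRI1-NS*, *tabri1-bd*, *tabri1-a.3bd* and Cadenza, by a small margin in replicate 1 of *tabri1-a.1bd*. The *tabri1-a.2bd* libraries held 464 reads of it in total, beside the 2 in *TaBRI1-NS*. Against Cadenza at the floor of 3 reads per library, the mean TPM was at least 37.0-fold higher in *tabri1-a.2bd*. For *tabri1-a.1bd* it was at least 724-fold higher, or at least 1083-fold without replicate 1. *tabri1-a.3bd* had 0, 0.247, 0.0230 and 0 TPM and *tabri1-bd* had 0, 0.0946, 0.130 and 0 TPM, levels of 0 to 11 reads.

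**Figure D1:**
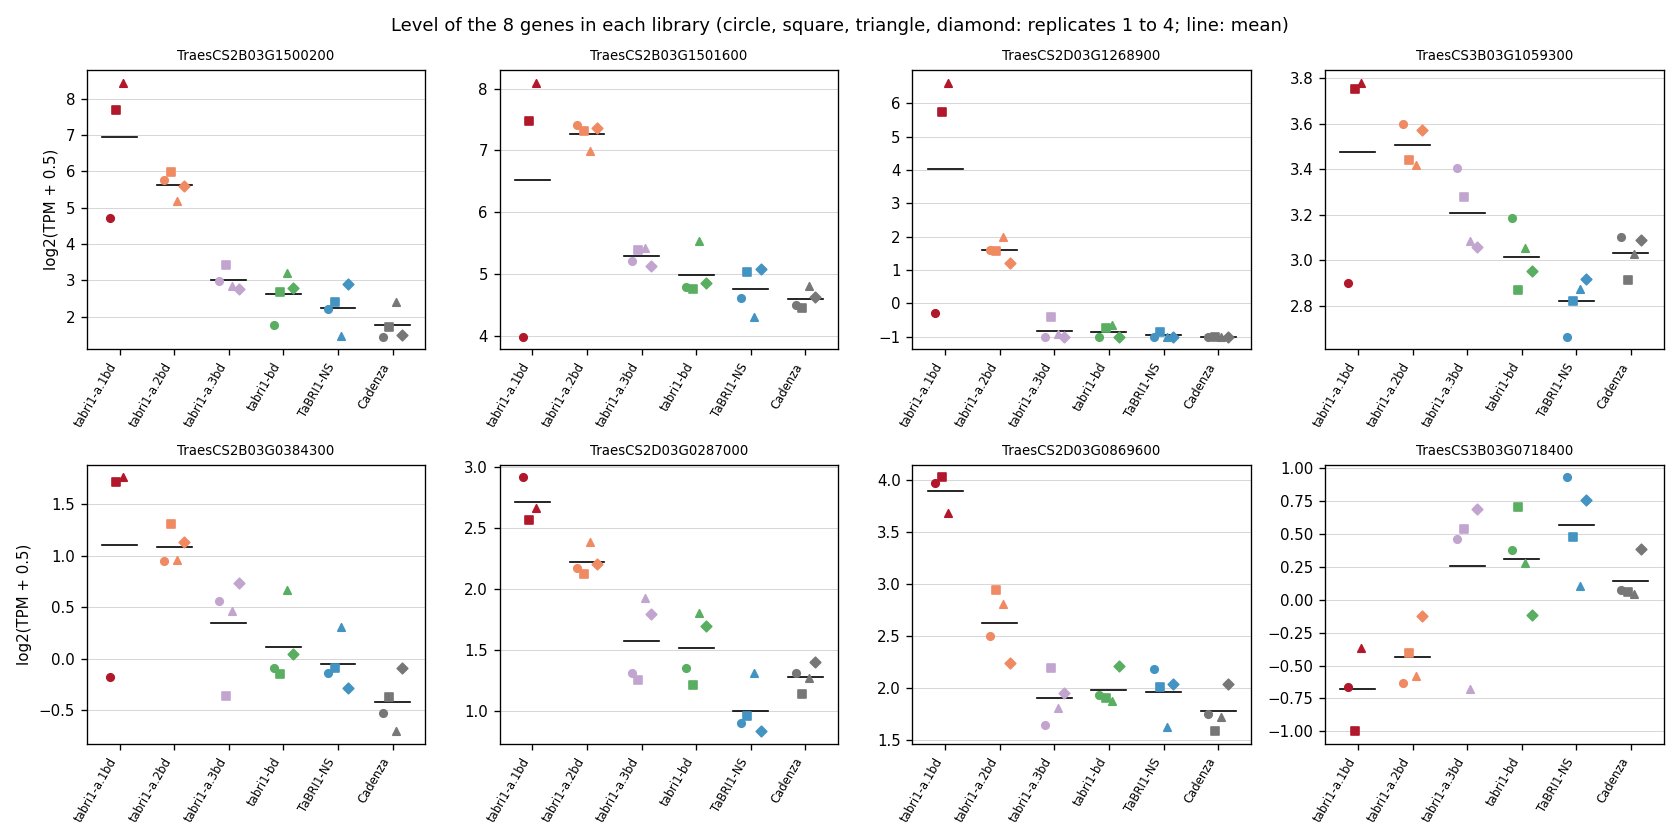
Level of each of the 8 genes as log2(TPM + 0.5) (vertical axes, scaled per gene) in the 23 libraries, by genotype (horizontal axis), with replicates 1 to 4 as circle, square, triangle and diamond and the mean as a line. Replicate 1 of *tabri1-a.1bd* lies far below replicates 2 and 3 in 5 panels, and TraesCS3B03G0718400 alone is lowest in the dwarfs.

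Of the members outside this group of 3, TraesCS2D03G0869600 and TraesCS2D03G0287000 had similar levels in all 3 *tabri1-a.1bd* libraries. For TraesCS2D03G0869600 the *tabri1-a.1bd* libraries had 15.2, 15.7 and 12.3 TPM, those of *tabri1-a.2bd* had 5.18, 7.20, 6.51 and 4.23 TPM, and the control had 4.06, 3.54, 2.59 and 3.61 TPM. The 3 groups did not overlap, and the ratio to the control mean was 4.18 and 1.68 in the order given. Its levels in *tabri1-a.3bd* (2.64 to 4.08 TPM), *tabri1-bd* (3.17 to 4.13 TPM) and Cadenza (2.50 to 3.63 TPM) overlapped with the control. For TraesCS2D03G0287000 the values were 7.04, 5.43 and 5.86 TPM in *tabri1-a.1bd*, those of *tabri1-a.2bd* were 4.00, 3.86, 4.72 and 4.11 TPM, and the control had 1.37, 1.44, 1.98 and 1.28 TPM. These groups were also separate, at 4.02 and 2.75 times the control mean. *tabri1-a.3bd* (1.88 to 3.31 TPM), *tabri1-bd* (1.82 to 3.00 TPM) and Cadenza (1.70 to 2.14 TPM) had means between these, each overlapping with the control. For these 2 genes alone among the 8, all *tabri1-a.1bd* libraries lay above all *tabri1-a.2bd* libraries, as did those of 18.8% of all genes tested. For 0 of the 8 they lay below, as did 17.3%. The distinction rests on replicate 1 of *tabri1-a.1bd*. Without it, *tabri1-a.1bd* lay above *tabri1-a.2bd* for every member but TraesCS3B03G0718400, with no share of all genes given beside this.

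TraesCS3B03G1059300 varied least. It had 5.84, 6.57, 6.83 and 7.05 TPM in *TaBRI1-NS*, 11.6, 10.4, 10.2 and 11.4 TPM in *tabri1-a.2bd*, and the *tabri1-a.1bd* libraries had 6.97, 13.0 and 13.2 TPM. The *tabri1-a.2bd* libraries were at 1.66 times the control mean and separate from it, and replicate 1 of *tabri1-a.1bd* was inside the control range. *tabri1-a.3bd*, at 10.1, 9.20, 7.99 and 7.83 TPM, was above the control in every library. TraesCS2B03G0384300, a weakly transcribed gene, had 0.408, 0.440, 0.739 and 0.325 TPM in *TaBRI1-NS*, 1.44, 1.97, 1.45 and 1.70 TPM in *tabri1-a.2bd*, and the *tabri1-a.1bd* libraries had 0.388, 2.78 and 2.89 TPM. Again replicate 1 was inside the control range, and *tabri1-a.2bd* was separate, at 3.43 times the control mean.

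TraesCS3B03G0718400 was the single member with lower levels in the dwarfs. It had 1.40, 0.892, 0.577 and 1.19 TPM in *TaBRI1-NS*. It had 0.146, 0.255, 0.170 and 0.417 TPM in *tabri1-a.2bd*. The *tabri1-a.1bd* libraries had 0.132, 0 and 0.275 TPM. Both dwarfs were below every control library, at 0.243 and 0.134 times the control mean, and replicate 1 of *tabri1-a.1bd* was between the other two. These levels rest on 0 to 16 reads in the dwarfs and 24 to 49 in the control, and the library with 0 reads allows up to 0.0816 TPM at 3 reads.

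**Figure D2:**
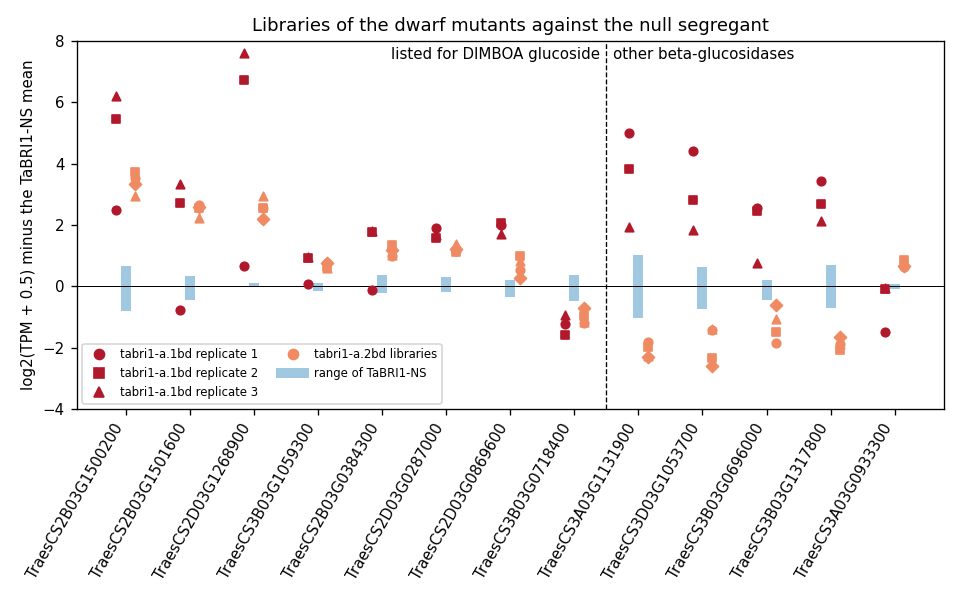
Each *tabri1-a.1bd* library (red, shape by replicate) and *tabri1-a.2bd* library (orange) as its log2(TPM + 0.5) minus the *TaBRI1-NS* mean (vertical axis), for the 8 genes and, right of the dashed line, 5 other beta-glucosidase genes of the same list (horizontal axis), with the *TaBRI1-NS* range as a blue bar. Among the 5, 4 lie below the control in *tabri1-a.2bd* and above it in *tabri1-a.1bd*, whereas 7 of the 8 have higher means in both.

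Across the set, the *tabri1-a.2bd* libraries were all above *TaBRI1-NS* for 7 genes and all below for 1, where 10.4% and 6.37% of the 83495 genes tested were separated in these directions. In *tabri1-a.1bd* 4 genes were above, 1 was below and 3 overlapped, with 22.8% and 16.9% of all genes. Without replicate 1 it was 7 above (32.8% of all genes). In *tabri1-a.3bd* 2 genes were above (TraesCS2B03G1501600 and TraesCS3B03G1059300) and 6 overlapped, with 8.33% of all genes above and 3.01% below. It was 0 above after rescaling of the libraries by median-of-ratios size factors, and 4 without *tabri1-a.3bd* replicate 2. The share of all genes under these settings is not given here, so those counts have no background. For *tabri1-bd* 0 genes were separated from *TaBRI1-NS* in either direction (3.15% of all genes were above and 1.84% below), and for Cadenza also 0 (10.1% and 2.45%). Since the choice of genes fixed the outcome in the dwarfs and may have fixed it in *tabri1-a.3bd*, nothing is read from these counts. The median log2 difference from *TaBRI1-NS* of the 8 genes was 1.74 for *tabri1-a.1bd*, 1.18 for *tabri1-a.2bd*, 0.39 for *tabri1-a.3bd*, 0.18 for *tabri1-bd* and -0.18 for Cadenza, and over all genes tested it lay between 0.00455 and 0.10.

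Ordered by their means, *tabri1-a.1bd* was the highest genotype and *tabri1-a.2bd* the next for 7 of the 8 genes. Those neighbours overlapped for 5 of the 7, in each case only through replicate 1 of *tabri1-a.1bd*. Its other libraries lay above every *tabri1-a.2bd* library for all 7, and the share of all genes without replicate 1 is not given here. The step from *tabri1-a.2bd* down to the next genotype was a gap between libraries for all 7, and below it no neighbours in the order were separated. For TraesCS3B03G0718400 the gap lay between Cadenza and *tabri1-a.2bd*. *tabri1-a.2bd* was above the milder *tabri1-a.3bd* in every library for 7 genes, as were 3.96% of all genes tested, and below for 0 (5.91%), a count the choice may have fixed. The exception was TraesCS3B03G0718400, for which *tabri1-a.3bd* had 0.878, 0.952, 0.126 and 1.11 TPM and replicate 3 stood with the dwarfs. Set against Cadenza, whose libraries took no part in the choice while those of the dwarfs did, *tabri1-a.2bd* was again above for 7 genes (6.49% of all genes) and below for 1 (9.49%). *tabri1-a.1bd* was above Cadenza for 4 (18.0% of all genes) and below for 1 (19.8%). Without replicate 1 it was above for 7 (27.4% of all genes) and below for 1 (23.5%).

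The summed level of the 8 genes, a quantity per gene length, was 40.3 TPM ± 3.96 (SD, n = 4) in Cadenza and 44.8 TPM ± 8.85 (SD, n = 4) in *TaBRI1-NS*. *tabri1-bd* had 53.0 TPM ± 11.96 (SD, n = 4), *tabri1-a.3bd* had 62.6 TPM ± 4.71 (SD, n = 4) and *tabri1-a.2bd* had 230 TPM ± 28.3 (SD, n = 4). The *tabri1-a.1bd* libraries had 71.3, 476 and 753 TPM. TraesCS2B03G1501600 held 59.0% to 67.2% of the sum in the mean of 5 genotypes, and 31.7% in *tabri1-a.1bd*.

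*tabri1-bd* was compared with Cadenza, the parent cultivar with functional copies. The mutant descends from mutagenised and backcrossed lines, so loss of the B and D copies and other differences of background cannot be told apart here. Over all genes, limma called 105 between *tabri1-bd* and its sister line *TaBRI1-NS*, and 1860 between Cadenza and *TaBRI1-NS*, which both have functional copies. In that order the calls were 109 and 1017 with size factors, and 78 and 1134 with voom, so the second number depended on the scaling. The comparison of *tabri1-bd* with Cadenza gave calls for 0 of the 8 genes by limma (Benjamini-Hochberg adjusted p of 0.05 or less over 83495 genes). In it 3.66% of all genes were called, 0.392% higher and 3.26% lower in *tabri1-bd*. That split depended on the scaling, with 327 genes higher and 2725 lower as fitted, 681 and 1278 with size factors, and 609 and 1175 with voom. TraesCS2D03G1268900 passed the filter only through dwarf libraries and is at or near 0 in both genotypes, so the comparison rests on the 7 other genes, of which 0 were called. Adjusted p-values from limma ran from 0.464 to 0.979, 0 of the 8 had an unadjusted p under 0.05, and limma's voom on the recovered reads also called 0. Leaving out any single library, *tabri1-a.1bd* replicate 1 included, called 0 as well. The libraries of the 2 genotypes overlapped for all 8 genes, against 4.78% of all genes with *tabri1-bd* above and 13.0% with it below. Without TraesCS2D03G1268900, means of 6 of the 7 were higher in *tabri1-bd*, with a median log2 difference of 0.24 beside -0.08 over all genes tested.

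The intervals show what this comparison could miss. Their widths come from the spread in all 23 libraries of the fit, not only in the genotypes compared. They include the spread of *tabri1-a.1bd*, which was large for the 2B pair and TraesCS2D03G1268900. For TraesCS2B03G1500200 the log2 difference was 0.85 (SE 0.53, limma 95% interval -0.25 to 1.95), an interval that includes 0. With limma's array weights, which down-weight variable libraries, this gene alone of the 8 was called, with an adjusted p of 0.0241, where 18% of all genes were called (15060), and over all alternatives its adjusted p ran from 0.0241 to 0.694. The estimate of those weights stopped before it converged. TraesCS2B03G1501600 differed by 0.39 (SE 0.52, interval -0.70 to 1.48), and TraesCS2B03G0384300 by 0.54 (SE 0.33, interval -0.16 to 1.23). The narrowest interval was that of TraesCS3B03G1059300, at -0.02 (SE 0.15, interval -0.32 to 0.29), whose sign turned under several alternatives. TraesCS2D03G0287000 differed by 0.24 (interval -0.11 to 0.59), TraesCS2D03G0869600 by 0.20 (interval -0.14 to 0.54) and TraesCS3B03G0718400 by 0.17 (interval -0.38 to 0.72). TraesCS2D03G1268900 had 0 to 6 reads in the *tabri1-bd* libraries and 0 in those of Cadenza. Its fitted difference of 0.15 (interval -1.64 to 1.93) depends on the pseudocount, and no conclusion is drawn from it.

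**Figure D3:**
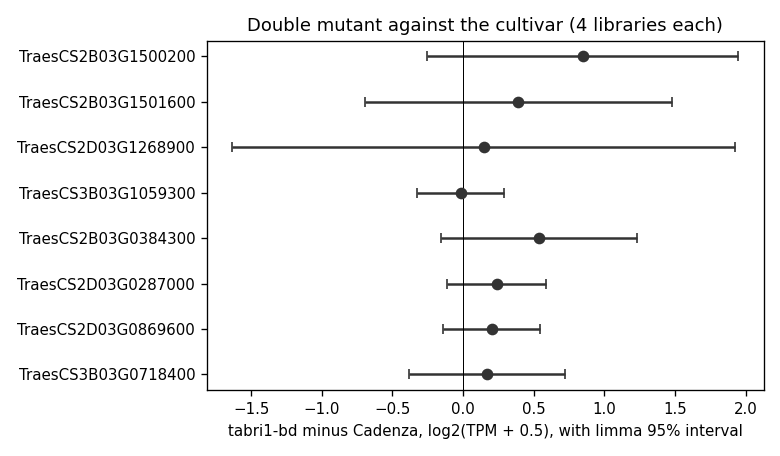
Log2 difference of *tabri1-bd* from Cadenza (horizontal axis, log2(TPM + 0.5), 4 libraries of each genotype) for the 8 genes (vertical axis), with the limma 95% interval as a bar. The spread behind each interval is that of the fit to all 23 libraries, including the variable *tabri1-a.1bd*. Each of the 8 intervals includes 0, and the widest belong to TraesCS2D03G1268900, TraesCS2B03G1500200 and TraesCS2B03G1501600.

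The study lists 5 other genes for beta-glucosidase activity, also chosen on these samples, so they are no independent comparison. They are TraesCS3A03G1131900, TraesCS3D03G1053700, TraesCS3B03G0696000, TraesCS3B03G1317800 and TraesCS3A03G0933300. In *tabri1-a.2bd* 4 of these were below every *TaBRI1-NS* library and 1 was above, while in *tabri1-a.1bd* the same 4 were above and 1 overlapped. The level of TraesCS3A03G1131900 was 8.61 TPM ± 5.99 (SD, n = 4) in *TaBRI1-NS*, 1.28 TPM ± 0.300 (SD, n = 4) in *tabri1-a.2bd*. The *tabri1-a.1bd* libraries had 238, 105 and 27.9 TPM. Replicate 1 of *tabri1-a.1bd* was the highest of the 3 for this gene, and also for TraesCS3D03G1053700 (276, 91.7 and 45.6 TPM), TraesCS3B03G1317800 (41.4, 24.3 and 16.4 TPM) and TraesCS3B03G0696000 (10.01, 9.21 and 2.50 TPM). For the 2B pair and TraesCS2D03G1268900 the same library was the lowest of the 3. TraesCS3A03G0933300, which is also listed for scopolin beta-glucosidase activity, was the 1 above the control in *tabri1-a.2bd*, at 10.5 TPM ± 0.798 (SD, n = 4) beside 6.17 TPM ± 0.445 (SD, n = 4), and in *tabri1-a.1bd* replicate 1 was again its lowest library, at 1.90 TPM. The part of this library in each result was not tested beyond leaving it out.

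Levels of most of the 8 genes were correlated across libraries, which share their genotypes. Pearson's r of log2(TPM + 0.5) over the 23 libraries had a median of 0.754 over the 28 pairs, from -0.823 to 0.923. It was 0.89 for the 2B pair, 0.89 for TraesCS2B03G1501600 with TraesCS3B03G1059300, 0.92 for TraesCS2B03G1500200 with TraesCS2D03G1268900 and 0.85 for TraesCS2B03G1501600 with TraesCS2D03G1268900. These are descriptions. For deviations from the genotype means, r was 0.92 for the 2B pair, and 0.76 over the 20 libraries without *tabri1-a.1bd*. For the pairs of TraesCS2D03G1268900 with the 2B genes it was 0.84 and 0.94 over 23 libraries and 0.21 and 0.10 over the 20, so there it rested on *tabri1-a.1bd*. Over all pairs the median of this r was 0.0331 over 23 libraries and -0.00142 over 20.

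The genes most like each member were sought among all genes tested. Both sets of libraries used hold *tabri1-a.2bd* and *TaBRI1-NS*, whose difference chose the members. Each r is also the highest over all genes tested, so high values follow in part from the choice. They are descriptions, and nothing is read from which gene was nearest. For TraesCS2D03G1268900 the nearest was TraesCS7B03G1230900, with r of 0.995 over 23 libraries and 0.99 over the 20 without *tabri1-a.1bd*. For the other members the nearest gene differed between the 2 sets of libraries. TraesCS2B03G1500200 was nearest to TraesCS5D03G0868300 (r of 0.982) and TraesCS5A03G1242500 (0.965), and TraesCS2B03G1501600 to TraesCS4B03G0980800 (0.971) and TraesCS4B03G0939500 (0.978), over 23 and 20 libraries in that order. TraesCS3B03G1059300 was nearest over 23 libraries to TraesCS2B03G0038200, which the study names *TaBR6ox1-B2*, a gene of the brassinosteroid synthesis enzyme CYP85A1 (r of 0.926), and over 20 libraries to TraesCS6A03G1042600 (0.904). TraesCS2B03G0384300 was nearest to TraesCS5A03G0657700 (0.939) and TraesCS1B03G0652500 (0.942), TraesCS2D03G0287000 to TraesCS3B03G0090000 (0.914) and TraesCS3B03G0508400 (0.900), and TraesCS2D03G0869600 to TraesCS6A03G0011700 (0.959) and TraesCS4B03G0667000 (0.864). The lowest of these values belonged to TraesCS3B03G0718400, with TraesCS2D03G0746900 (0.862) and TraesCS2B03G0746600 (0.824).

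Genes next to the 8 on the chromosomes took no part in their choice and were tested. The 10 nearest tested genes on each side gave 141 genes. In *tabri1-a.2bd* against *TaBRI1-NS* 16 of the 141 were called by limma (adjusted p of 0.05 or less), 7 higher and 9 lower, which is 11.3% beside 7.46% of all genes. In *tabri1-a.1bd* 68 were called, 32 higher and 36 lower, which is 48.2% beside 43.8%. In *tabri1-a.3bd* 10 were called, 7.09% beside 2.30%, and this fell to as few as 2 (without *TaBRI1-NS* replicate 3) when single libraries were left out. Without that library the calls over all genes fell as well, from 1918 to 835. In *tabri1-bd* against Cadenza 6 were called, all lower, 4.26% beside 3.66%. Between *tabri1-bd* and *TaBRI1-NS* 1 was called (0.126% of all genes), and between Cadenza and *TaBRI1-NS* 3 were called (2.23% of all genes). Without *tabri1-a.1bd* replicate 1, which widens the spread that all genotypes share in the fit, 31 were called for *tabri1-a.2bd*, 21 for *tabri1-a.3bd* and 11 for *tabri1-bd* against Cadenza, where over all genes the calls then numbered 11711, 4817 and 5826.

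For single members, the counts in *tabri1-a.2bd* are small and are given beside the 7.46% of all genes called. Of the 20 nearest tested genes of each gene of the 2B pair, 1 was called, and it was lower. That gene is the same for both, as the pair shares most of its neighbours. Around TraesCS2B03G0384300 1 of 20 was also called lower. Of the 20 around TraesCS2D03G1268900, 1 was called higher and 1 lower. Around TraesCS2D03G0287000 5 of 20 were called, 2 higher and 3 lower, and around TraesCS2D03G0869600 3 of 20, all lower. Around TraesCS3B03G1059300 2 of 20 were called and both were higher. Around TraesCS3B03G0718400, whose own level was lower, 2 of 20 were called and both were higher.

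**Figure D4:**
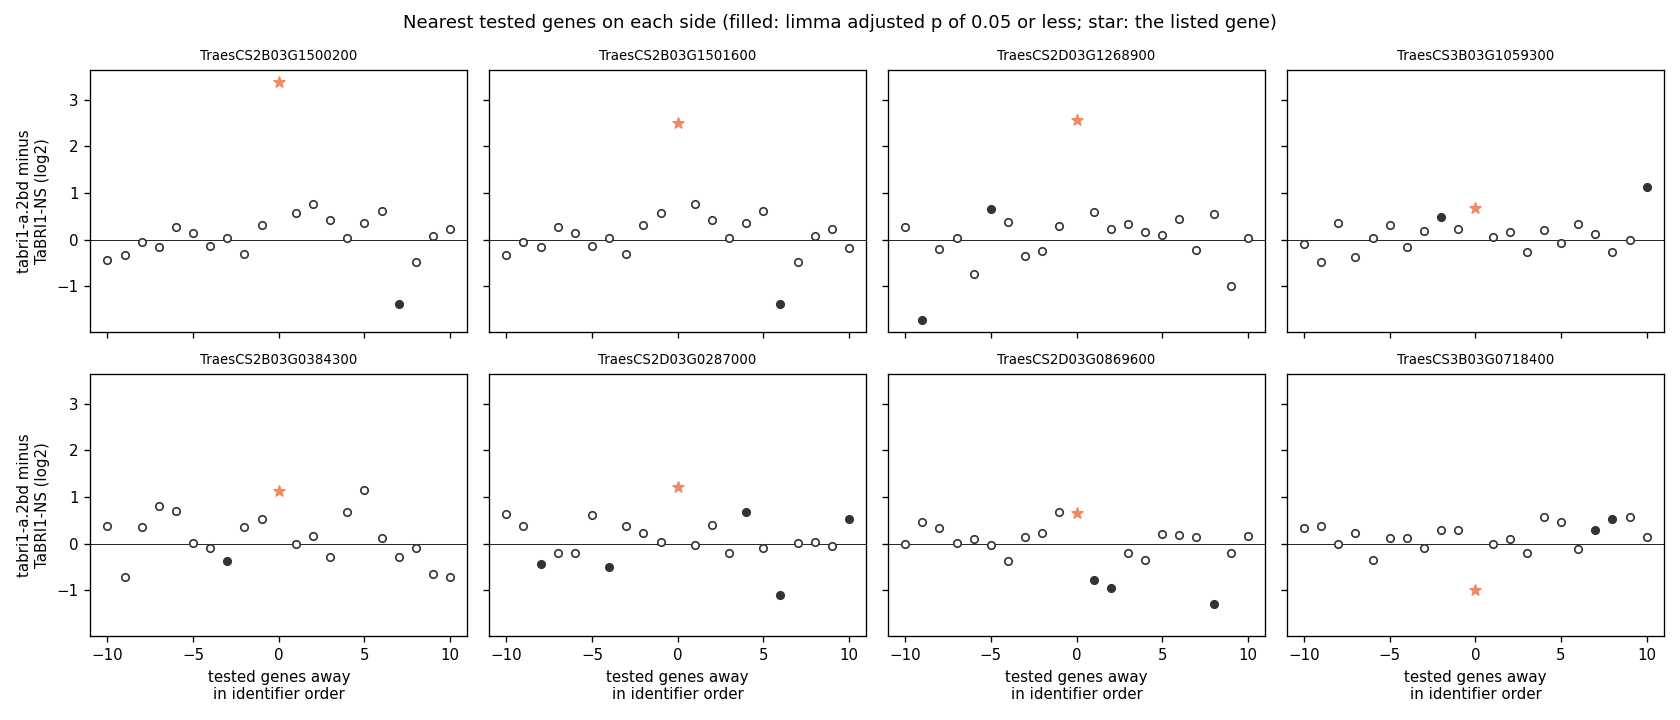
Log2 difference of *tabri1-a.2bd* from *TaBRI1-NS* (vertical axis) of the 10 nearest tested genes on each side of each of the 8 genes (circles, filled where limma's adjusted p was 0.05 or less), against their place in identifier order (horizontal axis), with the listed gene as a star. The stars of the 2B pair and of TraesCS2D03G1268900 lie above all 20 of their neighbours. The listed genes were chosen on this contrast and the neighbours were not, so nothing is read from that position.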

How the data were processed

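The TPM deposited by the authors were made per library, with no replicates pooled, from read pairs trimmed by Trimmomatic 0.39, aligned by STAR 2.7.8a against the IWGSC RefSeq v2.1 genome and assigned to genes by HTSeq 0.11.3. HTSeq options and gene lengths are not given in the sources used here. The authors tested genes with DESeq2, and no column of that test was used. The members and gene lists were chosen with earlier results of these data known.

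Genes with at least 0.5 TPM in at least 3 libraries were tested (83495 of 266760). A single limma model (lmFit, then eBayes with trend and robust, two-sided) with genotype as its factor was fitted to log2(TPM + 0.5) of 23 libraries, and an adjusted p (Benjamini-Hochberg) of 0.05 or less was a call. A fold change on this scale understates that of low genes. Whole reads were recovered from the TPM for 94749 of 94749 genes above 0 in at least 8 libraries (100%, within 0.05 reads of a whole number), and voom on these reads was an alternative. They give 22617693 to 38467039 reads per library. Reads are not molecules, so the floors cover counting error only. The limma intervals rest on the spread between libraries. Named genes are the 8 members, the 5 other listed beta-glucosidase genes and, per member, the gene with the highest r over 23 and over 20 libraries. Neighbours were taken in identifier order, since the table gives no coordinates. Tried as alternatives were pseudocounts of 0.1 and 1, a filter of 2 TPM or none, high-confidence genes only, size factors, a separate fit, array weights, the replicate block, 5 neighbours and each library left out. Some of these were added for the neighbours after the data were seen. The fit was tested on simulated data. Fits ran in R 4.3.3 (limma 3.58.1, statmod 1.5.0), other steps in Python 3.11.15 (scipy 1.17.1, pandas 2.3.3, numpy 2.4.6, matplotlib 3.10.9). No sequences are shown.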

Additional observations from a re-analysis of the deposited data

Results flagged for a closer look

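In 5 of 40 sets of 4 libraries (a member in a genotype) the highest library stood far from the other 3 by Dixon's criterion. For independent, normally distributed values, chance gives this in about 1 of 20 sets. These sets share libraries and some hold TPM at or near 0, so their count cannot be set against that rate. TraesCS2B03G1501600 had 46.0 TPM in 1 *tabri1-bd* library, beside a median of 27.9. TraesCS2D03G0869600 had 4.13 TPM in another, beside 3.28. TraesCS3B03G0718400 had 0.810 TPM in 1 Cadenza library, beside 0.546. TraesCS2D03G1268900 had 0.247 TPM in 1 *tabri1-a.3bd* library, from 11 reads, and 0.0482 TPM in 1 *TaBRI1-NS* library, from 2 reads. The 3 libraries of *tabri1-a.1bd* were too few for this criterion.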

How the results depend on the processing

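In *tabri1-bd* against Cadenza, array weights called 1 member (and 15060 of all genes, 18%, beside 3052 without them, 1959 with size factors and 1784 with voom) and every other alternative 0. The log2 difference of TraesCS3B03G1059300 turned to 0.0972 with size factors and 0.10 with voom, and ran from -0.0741 to 0.0324 when single libraries of these genotypes were left out (also 0.00629, 0.00362 and 0.00192). Replicate numbers did not pair the samples (correlations of deviations -0.0125, 0.0567, -0.0107 and 0.0777, with 2 of 4 replicates closest to their own number). With the replicate block 0 members and 2674 genes were called. For *tabri1-a.3bd*, with no share of all genes given beside them, 0 members lay above *TaBRI1-NS* with size factors and 2 to 4 when single libraries were left out (4 without replicate 2). The difference of TraesCS2D03G0869600 then ran from -0.177 to 0.0202 (above 0, also 0.0096, without replicate 1 of either genotype), and that of TraesCS2D03G1268900 from -0.0116 (without *tabri1-a.3bd* replicate 2) to 0.181. For *tabri1-a.1bd*, 4 to 7 members lay above the control when single libraries were left out. It was 4 with all libraries, beside 22.8% of all genes, and 7 without replicate 1, beside 32.8%. Shares without the other libraries are not given here. The cause of these changes was not tested.

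Of the 141 neighbours, array weights called 28 for *tabri1-a.1bd*, 33 for *tabri1-a.2bd*, 18 for *tabri1-a.3bd* and 10 for Cadenza, each against *TaBRI1-NS*, and 28 for *tabri1-bd* against Cadenza. Over all 83495 genes tested, array weights called 13152, 12024, 4152, 6920 and 15060 in that order. A separate fit called 16 neighbours for *tabri1-bd* against Cadenza (6905 over all genes). Size factors called 1 for Cadenza against *TaBRI1-NS* (1017 over all genes). With single libraries left out, the counts for the contrasts with *TaBRI1-NS* were 62 to 72 (*tabri1-a.1bd*), 12 to 31 (*tabri1-a.2bd*), 2 to 21 (*tabri1-a.3bd*), 0 to 1 (*tabri1-bd*) and 1 to 4 (Cadenza), and 4 to 11 for *tabri1-bd* against Cadenza. Over all genes the same ranges were 33020 to 37169, 3662 to 11711, 835 to 4817, 63 to 169, 725 to 3318 and 1282 to 5826 in that order. The counts of 31, 21 and 11 came without *tabri1-a.1bd* replicate 1, which shares its spread with the other genotypes in the fit. These alternatives for neighbours, other than size factors, were chosen after seeing the data. Low read counts limit TraesCS2D03G1268900 and TraesCS3B03G0718400 most.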
